A study of Mus musculus with 15 samples.

Results

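The genes described here encode hormones of the gastric endocrine cells and the proteins that make, modify or store their products. They are Ghrl, Mboat4, Gast, Sst, Hdc, Slc18a2, Chga, Chgb, Tph1 and Gcg, 10 of the 44788 gene symbols in the files. They were chosen by symbol, with earlier results of these data known. All 10 reached an FPKM (fragments per kilobase of transcript, scaled to mapped fragments) of at least 1 at 1 or more timepoints. In all, 16902 symbols did so. RNA of whole stomachs of C57BL/6 mice was sequenced at 15 timepoints, with 1 library at each: fetal stomachs on each day from E12.5 to E18.5, and stomachs after birth at days 1, 3 and 5 (D1, D3, D5) and weeks 1, 2, 3, 6 and 8 (W1 and so on). The labels name no treatment and no genetic change. For the comparisons, the timepoints were grouped by age into a fetal stage (7 timepoints), a suckling stage (5 timepoints, D1 to W2) and a weaned stage (3 timepoints, W3 to W8). The labels give ages only, and the stage names stand for these ages. The timepoints of a stage took the place of replicates, so the spread within a stage includes change over time. The stages are also consecutive in age, so a gene that climbs steadily with age can have small p-values between them. The p-values below therefore do not tell a step between stages from a steady climb. The study describes its replicates as pools of stomachs from E12.5 to E17.5, with fewer stomachs per pool from E15.5 on. It describes no separation by sex up to W2, and males afterwards. Age, diet and sex therefore cannot be told apart between the last stages.

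Endocrine cells are scattered through the gastric glands and release peptides and amines into the blood or onto their neighbors. Gastrin from the G cells of the antrum makes the enterochromaffin-like cells of the corpus release histamine, which drives acid secretion by the parietal cells, and somatostatin from D cells restrains both. Ghrelin from X/A-like cells acts on appetite and growth hormone after an octanoyl group has been attached to it. In RNA of a whole organ, fewer cells of a type and less RNA per cell cannot be told apart, and this holds for every level given here.

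The labeled tissue was checked against marker genes. The 14 genes of a stomach epithelium list summed to an FPKM of 641 at E12.5 and 123251 at W8, and the parietal and chief cell list of 8 measured genes summed to 202 and 169655. The study's methods name liver as the source of the RNA where its labels and the rest of its text name stomach. The summed FPKM of 9 liver genes lay between 20.8 and 248 at 14 timepoints and reached 1151 at D1, where Alb, the serum albumin gene, had an FPKM of 461. The summed FPKM of 10 pancreatic acinar genes was 58.9 at E15.5 and 166 at D3, and between 1.54 and 23.9 at the other 13 timepoints. The libraries of E15.5, D1 and D3 thus stood apart, and comparisons between stages were also run without them. The FPKM values of a library summed to between 745538 at E14.5 and 1344957 at W6, and a fragment was worth a median of 0.0428 to 0.0696 FPKM. The 10 highest genes took 11.2% to 53.2% of this sum, with the highest share at W6.

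**Figure D1:**
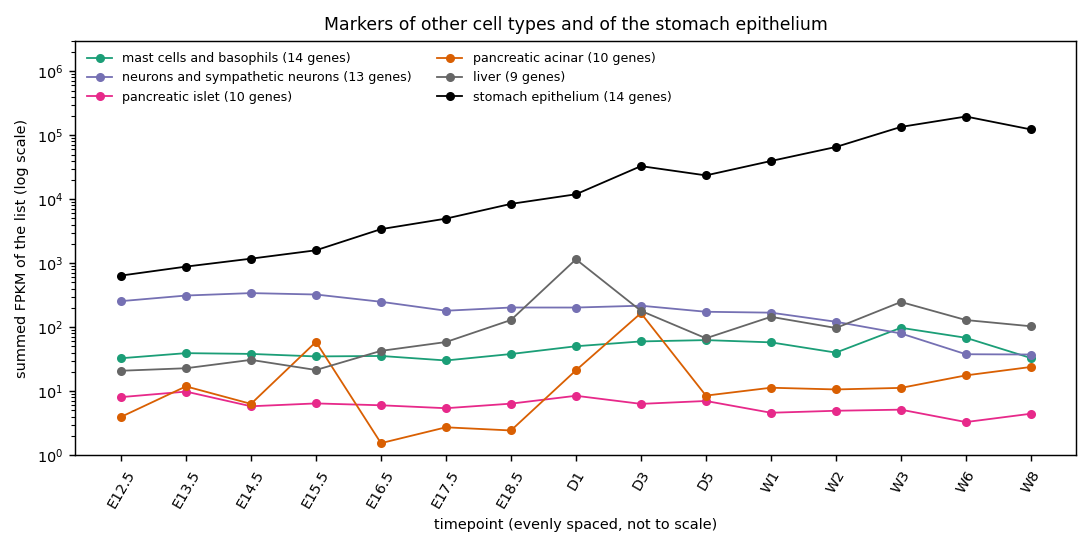
Summed FPKM (log scale) of 6 marker lists at the 15 timepoints, which are evenly spaced and not to scale; each point is 1 library. The liver list peaked at D1 (1151), the pancreatic acinar list at D3 (166) and E15.5 (58.9), and the stomach epithelium list ran from 641 at E12.5 to 123251 at W8.

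The 10 genes together had an FPKM of 20.6 at E12.5 and 4469 at W8, or 0.00268% and 0.398% of all FPKM in these libraries, with the highest share of 0.431% at W2. Ghrl had the highest FPKM of the 10 at each of the 15 timepoints. Ghrl and Sst together made up 33.9% of the summed FPKM of the 10 genes at E12.5, 92.9% at W2 and 77.7% at W8. The next place was held by Slc18a2 at E12.5, Chga at E13.5, Gast from E14.5 to E16.5 and at D3, and Sst at the other timepoints. Slc18a2 accounted for 18.4% at E12.5 and 0.184% at W8, while Chga accounted for 16.3% and 11.9%.

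**Figure D2:**
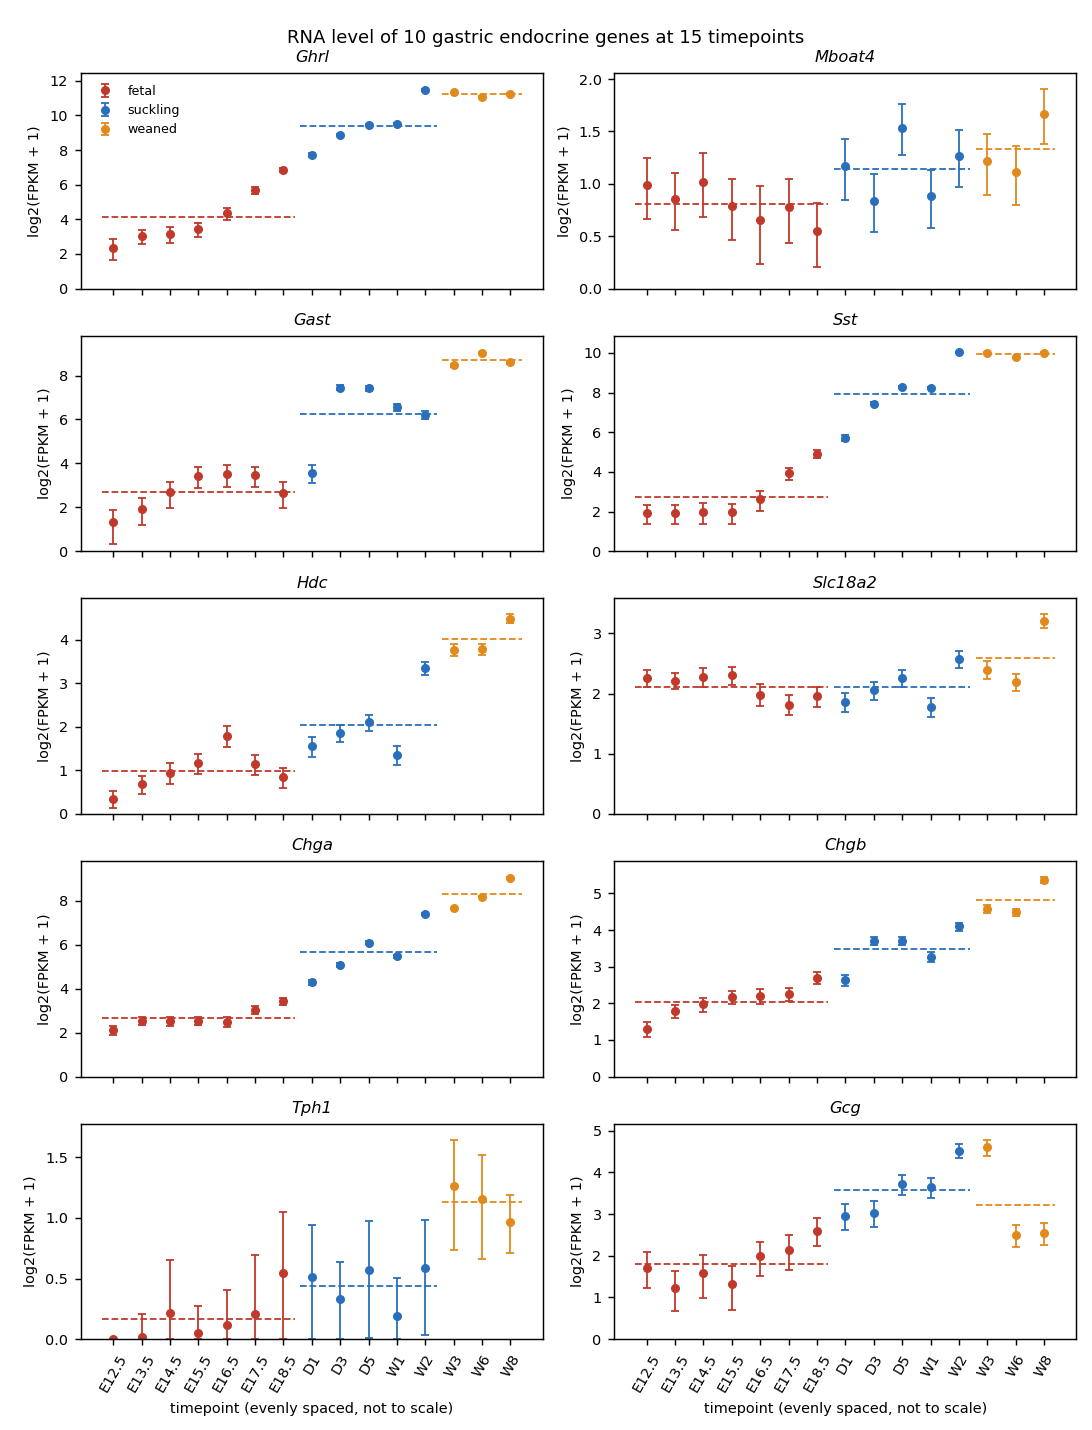
RNA level of each gene as log2(FPKM + 1) at the 15 timepoints, with 1 point per library, bars for the deposited confidence bounds (counting error only) and dashed lines for the stage means. As deposited, Ghrl and Sst climbed from E16.5 to W2 and then stayed near their highest level. Slc18a2 and Mboat4 stayed within a 5-fold range.

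From the fetal to the suckling stage, 7 of the 10 genes rose at an adjusted p under 0.05 in limma on log2(FPKM + 1) with Benjamini-Hochberg adjustment over the 16902 genes tested, against 16.9% of all tested genes. These were Ghrl, Sst, Gast, Chga, Gcg, Chgb and Hdc. In limma 0 of the 10 were lower at this threshold, against 41.9% of all tested genes, and 0 at an unadjusted p under 0.05, against 44.7%. For 5 of the 7 (Ghrl, Sst, Gast, Chga and Gcg) every suckling value lay above every fetal value, which held for 6.63% of all tested genes. From the suckling to the weaned stage, 5 of the 10 rose (Chga, Gast, Hdc, Chgb and Tph1), against 4.92% of all tested genes. For these 5 the stages did not overlap, against 4.9% of all. Among them Tph1 reached an FPKM of 1, the limit for testing, only in the weaned stage. Again 0 of the 10 were lower in limma, against 46.8% of all tested genes, and 0 at an unadjusted p under 0.05, against 52.5%. Without the libraries of E15.5, D1 and D3 the counts were 7 and 5 again.

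The median log2 fold change of all tested genes was -0.22 between the first 2 stages and -0.42 between the last 2. After median-ratio scaling these medians were 0.01 and -0.03, and the number of tested genes called higher or lower changed from 2863 and 7078 to 4478 and 4095 for the suckling stage and from 831 and 7906 to 3468 and 2698 for the weaned stage. Under this scaling 9 of the 10 genes rose into the suckling stage and 8 into the weaned stage, and the signs of Slc18a2 (first comparison) and Gcg (second comparison) turned from negative to positive, with neither value past the threshold. With this scaling in place of the deposited one, many genes called lower in the weaned stage are no longer called. Falls are therefore given below with both values where they differ in call. Levels at single timepoints and ratios between timepoints are given as deposited. The factors by which this scaling divides the FPKM were 0.950 at W2, 0.756 at W3, 0.572 at W6 and 0.665 at W8. The weaned values of every gene thus rise against those of W2 under it.

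**Figure D3:**
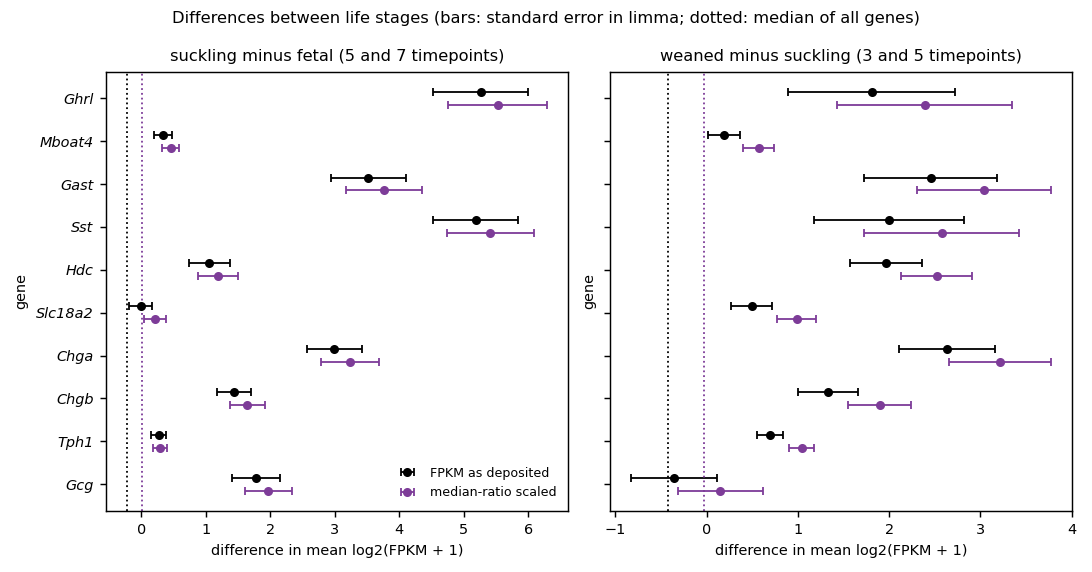
Difference in mean log2(FPKM + 1) between stages for each gene, with the FPKM as deposited (black) and after median-ratio scaling (purple); bars are standard errors in limma and dotted lines the medians of the 16902 tested genes. Ghrl (5.26) and Sst (5.19) had the highest differences of the 10 between the fetal and suckling stages, and Chga (2.64) and Gast (2.46) between the suckling and weaned stages.

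Ghrl, which encodes the appetite-regulating peptide ghrelin, had a fetal FPKM of 4.16 at its lowest (E12.5), 9.97 at the median and 116 at its highest (E18.5). Its FPKM was 208 at D1, 467 at D3, 704 at D5, 719.9 at W1 and 2819.6 at W2. The weaned values were 2565 at W3, 2116 at W6 and 2436 at W8. Ghrl thus lay higher at each suckling timepoint than at any fetal one. Its highest deposited value fell at the end of the suckling stage. After median-ratio scaling the highest value lies in the weaned stage instead. The suckling stage exceeded the fetal stage by 5.26 ± 0.74 (SE, 5 and 7 timepoints) on the log2 scale (limma, Benjamini-Hochberg adjusted p = 0.000156; exact two-sided permutation p = 0.00126, the smallest that 792 splits allow). Weaned and suckling levels overlapped as deposited because of W2, with a difference of 1.81 ± 0.92 (adjusted p = 0.110 in limma). Without the W2 library the difference was 2.32 (adjusted p = 0.0403), and after median-ratio scaling it was 2.39 (adjusted p = 0.0633). With the paper's RNA phases, which put E18.5 in the middle group, it was 2.23 (adjusted p = 0.0299). Without E15.5, D1 and D3 the first difference was 5.89 (adjusted p = 0.00168) and the second 1.07 (adjusted p = 0.421). From 1 timepoint to the next the ratio was between 1.80 and 2.61 at each step from E15.5 to D3, 1.02 from D5 to W1 and 3.92 from W1 to W2. From W2 on, the ratios were 0.910, 0.825 and 1.15.

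Mboat4 encodes the acyltransferase that attaches the octanoyl group to ghrelin. Its FPKM ranged from 0.460 (E18.5) to 1.03 in the fetal stage, with a median of 0.722, and was 1.24, 0.789, 1.90, 0.842 and 1.41 from D1 to W2. The weaned values were 1.32, 1.16 and 2.18. The stages overlapped in both comparisons, and the level was low throughout. The differences of 0.33 ± 0.14 (limma adjusted p = 0.0551) and 0.19 ± 0.18 (adjusted p = 0.369) did not pass the threshold, and the second was -0.01 when every library was set to the same FPKM sum. The first comparison passed without E14.5 (0.37, adjusted p = 0.0470), without D3 (0.41, adjusted p = 0.0306), without W1 (0.40, adjusted p = 0.0383) or without W8 (0.33, adjusted p = 0.0406), and the second was 0.03 without W8. After median-ratio scaling both passed, at 0.46 (adjusted p = 0.0126) and 0.57 (adjusted p = 0.0171). The ratio of Ghrl to Mboat4 FPKM was 4.23 at E12.5, 251 at E18.5, 2004 at W2 and 1119.7 at W8. The Mboat4 entry (chr8:34107583-34125185, GRCm38) overlaps those of Dctn6 and Gm10131, so its values are uncertain where reads could be split between them. Fcho1 (r = 0.863), Parp16 (r = 0.837) and Slc9a3r2 (r = 0.830) had the profiles most like that of Mboat4, where r is Pearson's correlation of log2(FPKM + 1) over the 15 timepoints, given as a description.

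Sst, the somatostatin gene of the D cells, followed Ghrl closely. Its fetal FPKM had a lowest value of 2.77, a median of 2.95 and a highest value of 29.1 (E18.5). It was 51.6, 173, 311, 301 and 1039.9 from D1 to W2, and 1035, 882 and 1036 at W3, W6 and W8. No fetal value reached the suckling range. As deposited, W2 already lay at the weaned level, but after median-ratio scaling every weaned value lies above W2. The suckling stage was higher by 5.19 ± 0.66 on the log2 scale (limma adjusted p = 0.000105; exact two-sided permutation p = 0.00126), and by 5.96 without E15.5, D1 and D3 (adjusted p = 0.000543). The weaned stage differed from the suckling stage by 1.999 ± 0.82 (adjusted p = 0.0536), by 2.52 without W2 (adjusted p = 0.0141), and by 1.09 without E15.5, D1 and D3 (adjusted p = 0.277). After median-ratio scaling this comparison passed the threshold. The call of this comparison also changed without E18.5, which enters only through the pooled spread (adjusted p = 0.0298).

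Across the 15 timepoints Sst was the gene whose profile was most like that of Ghrl among 12440 genes with a highest FPKM of at least 5 (r = 0.994), followed by Gif, the intrinsic factor gene (r = 0.993), and 9130409J20Rik (r = 0.991). After Ghrl, the profiles most like that of Sst were those of Ces2d-ps (r = 0.993) and 1810010D01Rik (r = 0.991). All values of a timepoint share 1 library and 1 scaling, and most of these genes climbed with age. The ratio of Ghrl to Sst FPKM nevertheless moved: it was 1.46 at E12.5 and 4.04 at D1, and lay between 2.27 and 2.71 from D3 on. Both genes first reached 50% of their highest FPKM at W2. Over the same step from W1 to W2, Gast had a ratio of 0.782.

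**Figure D4:**
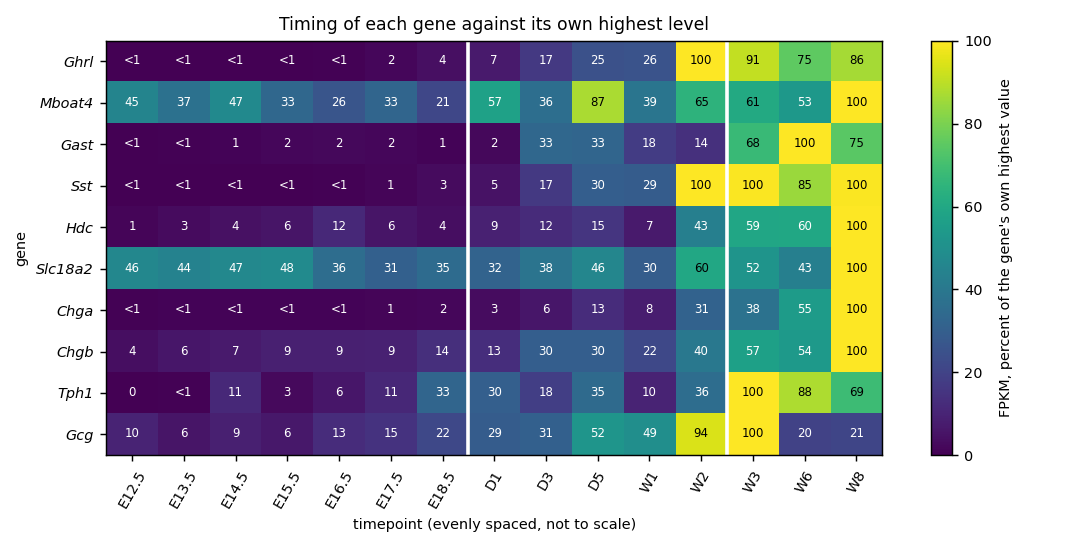
FPKM of each gene as a percent of its own highest value (color and printed number) at the 15 timepoints, with white lines between the stages. Ghrl and Sst were first above 50% at W2, Gast, Hdc, Chgb and Tph1 at W3 and Chga at W6, while Gcg was first above 50% at D5 and back at about 20% at W6.

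Gast encodes gastrin, the acid-stimulating hormone of the antral G cells. Its fetal FPKM had a lowest value of 1.501 (E12.5), a median of 5.43 and a highest value of 10.4 (E16.5). After birth it was 10.9 at D1, 173 at D3, 169.5 at D5, 93.3 at W1 and 72.9 at W2. It was then 353 at W3, 519 at W6 and 387 at W8. The deposited bounds of D1 overlapped those of E18.5, and D3 was 15.9-fold higher than D1. A 4-fold or larger increase over this step was seen in 0.896% of the genes with an FPKM of at least 1 at either timepoint. The liver marker sum was highest at D1 (1151) and the acinar marker sum at D3 (166), and their part in this step was not tested. A further 4.84-fold increase fell between W2 and W3, where 0.733% of genes were 4-fold or more higher. Between D3 and W2 the level declined, and the bounds of W1 and W2 lay apart from each other and from those of D5.

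The suckling stage exceeded the fetal stage in Gast by 3.52 ± 0.58 on the log2 scale (limma adjusted p = 0.000358; exact two-sided permutation p = 0.00126). The weaned stage exceeded the suckling stage by 2.46 ± 0.73 (adjusted p = 0.0124; exact permutation p = 0.0357, where 56 splits allow no less than 0.0179). Without D1, the library with the highest liver marker sum, the differences were 4.19 (adjusted p = 3.73e-05) and 1.79 (adjusted p = 0.0112). Without W6 the second was 2.29 and did not pass the threshold (adjusted p = 0.0581). The ratio of Gast to Sst FPKM was 3.34 at E15.5, 0.183 at E18.5, 1.001 at D3, 0.0701 at W2 and 0.589 at W6, so that somatostatin RNA was above gastrin RNA at each timepoint from D5 on. The profiles most like that of Gast were those of Sgk1, a kinase gene (r = 0.954), Hsd17b6, a steroid dehydrogenase gene (r = 0.952), and Rrbp1 (r = 0.950).

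**Figure D5:**
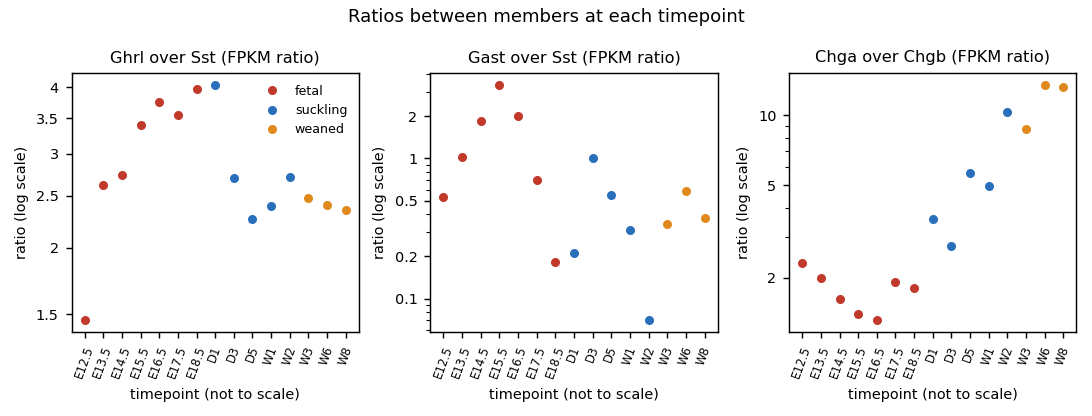
FPKM ratios between pairs of the genes at each timepoint (log scale), colored by stage, with 1 library per point and no error bars. Ghrl over Sst lay between 2.27 and 2.71 from D3 on, Gast over Sst was lowest at W2 (0.0701), and Chga over Chgb went from 1.31 at E16.5 to 13.53 at W6.

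Chga and Chgb encode chromogranins, acidic proteins of the secretory granules of endocrine cells and neurons. The fetal FPKM of Chga had a lowest value of 3.36, a median of 4.85 and a highest value of 9.84 (E18.5), and was followed by 18.53, 33.0, 67.6, 43.2 and 167 from D1 to W2. It was 201 at W3, 292 at W6 and 532 at W8. None of the stages overlapped in Chga. It rose by 2.99 ± 0.42 into the suckling stage (limma adjusted p = 0.000160; exact two-sided permutation p = 0.00126) and by 2.64 ± 0.53 into the weaned stage (adjusted p = 0.00148; exact permutation p = 0.0357). Without E15.5, D1 and D3 these differences were 3.62 and 1.98 (adjusted p = 0.000641 and 0.0157). As deposited, Ghrl and Sst had their highest values at W2, whereas Chga had its highest value at W8, 1.82 times that of W6. For Ghrl and Sst this depended on the scaling, since their highest values lie in the weaned stage after median-ratio scaling. The ratio of Ghrl to Chga FPKM was 16.9 at W2 and 4.58 at W8.

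The FPKM of Chgb was lower. Its fetal values had a lowest value of 1.46, a median of 3.47 and a highest value of 5.46, and those from D1 to W2 were 5.20, 12.0, 12.0, 8.67 and 16.1. The weaned values were 22.9, 21.6 and 40.3. D1 lay within the fetal range, and the weaned values lay above all others. Chgb rose by 1.43 ± 0.26 (limma adjusted p = 0.000639; exact two-sided permutation p = 0.00253) and then by 1.33 ± 0.33 (adjusted p = 0.00475; exact permutation p = 0.0179). The ratio of Chga to Chgb FPKM was between 1.31 and 2.31 in the fetal stage and between 8.77 and 13.53 in the weaned stage. Acacb (r = 0.994), Sec14l4 (r = 0.991) and Kcnj16, a potassium channel gene (r = 0.991), had the profiles most like that of Chga, and Sgms2 (r = 0.981), Pde1c (r = 0.978) and Chga (r = 0.978) those most like that of Chgb. The Chgb entry overlaps that of LOC102633748 at its end.

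Hdc encodes histidine decarboxylase, which makes histamine in the enterochromaffin-like cells and in mast cells. Its fetal FPKM had a lowest value of 0.266 (E12.5), a median of 0.926 and a highest value of 2.45 (E16.5). The values from D1 to W2 were 1.93, 2.64, 3.29, 1.54 and 9.14, and those of the weaned stage 12.6, 12.7 and 21.3. E16.5 lay above D1 and W1, while the weaned values were above all others. Hdc rose by 1.06 ± 0.31 into the suckling stage (limma adjusted p = 0.0102; exact two-sided permutation p = 0.00884) and by 1.97 ± 0.39 into the weaned stage (adjusted p = 0.00142; exact permutation p = 0.0179). Its largest step between neighbors was 5.92-fold from W1 to W2, where 1.24% of genes were 4-fold or more higher. The most similar profiles were those of Klf15 (r = 0.975), Sgms2 (r = 0.974) and Pacsin2 (r = 0.971).

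Slc18a2 encodes the vesicular monoamine transporter that loads histamine and other amines into granules. Its fetal FPKM lay between 2.52 and 3.93 with a median of 3.65, and its values from D1 to W2 were 2.63, 3.16, 3.78, 2.44 and 4.95. The weaned values were 4.27, 3.56 and 8.23. The stages overlapped in both comparisons, and W8 stood above the rest. The differences were -0.01 ± 0.18 (limma adjusted p = 0.968) and 0.49 ± 0.22 (adjusted p = 0.0770). The first was 0.21 after median-ratio scaling and 0.12 without E15.5, D1 and D3. The second passed the threshold without W2 (0.61, adjusted p = 0.0317), without W6 (0.70, adjusted p = 0.0421) and after median-ratio scaling (0.99, adjusted p = 0.00322), and was 0.19 without W8. The ratio of Hdc to Slc18a2 FPKM was 0.0700 at E12.5, between 0.633 and 1.85 in the suckling stage and between 2.58 and 3.56 in the weaned stage. Spire1 (r = 0.897), Rasgrp3 (r = 0.873) and Gnptab (r = 0.869) had the profiles most like that of Slc18a2.

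Tph1 encodes the tryptophan hydroxylase that starts serotonin synthesis in enterochromaffin cells and mast cells. It was listed at 0 at E12.5, its fetal median was 0.0841 and its fetal highest value was 0.457 at E18.5. From D1 to W2 the FPKM was 0.424, 0.257, 0.484, 0.140 and 0.501, and in the weaned stage it was 1.40, 1.22 and 0.958. At 10 of the 12 timepoints before W3 the lower confidence bound was 0, and the weaned values lay above all others. The rise into the weaned stage was 0.69 ± 0.14 (limma adjusted p = 0.00176; exact two-sided permutation p = 0.0179). Tph1 reached the FPKM of 1 needed for testing only at W3 and W6, in the stage where it was highest. This rise is therefore not independent of that limit. The difference between the suckling and the fetal stage was 0.27 ± 0.11 and did not pass (adjusted p = 0.0529). It passed in 7 of 23 alternatives, among them median-ratio scaling and the runs without E18.5 (0.34, adjusted p = 0.01001) or without W1 (0.33, adjusted p = 0.0271). Uqcrfs1 (r = 0.939), Alas1 (r = 0.935) and Gm3724 (r = 0.933) had the most similar profiles.

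Mast cells also use Hdc, Slc18a2 and Tph1, so their markers were set beside these genes. Of 9 tested markers in a list of 14, 5 rose into the suckling stage, and 3 rose and 1 fell into the weaned stage (median log2 fold changes 0.52 and -0.24). Tpsab1, called in both, reached the FPKM of 1 needed for testing only at W8. Its rise into the weaned stage is therefore not independent of that limit. Of all tested genes, 16.9% rose and 41.9% fell into the suckling stage, and 4.92% rose and 46.8% fell into the weaned stage. These shares are the background for each list below as well. The summed FPKM of the list ranged from 30.2 to 39.3 in the fetal, from 40.1 to 62.8 in the suckling and from 33.0 to 97.8 in the weaned stage. Kit made up 47.0% to 82.3% of the fetal sums, and without it the list ranged from 5.78 (E12.5) to 20.2 (E18.5) in the fetal, from 25.7 to 41.7 in the suckling and from 20.4 to 89.9 in the weaned stage. Within the weaned stage the sum without Kit was 89.9 at W3, 60.9 at W6 and 20.4 at W8, where Hdc was 12.6, 12.7 and 21.3. Mcpt1, a mast cell protease gene, rose by 2.39 ± 0.59 into the weaned stage (limma adjusted p = 0.00466) and Mcpt2, another, by 1.87 ± 0.54 (adjusted p = 0.0111), with a difference of 1.298 without E15.5, D1 and D3 (adjusted p = 0.0886). Tpsb2 (1.84 ± 0.41, adjusted p = 0.00208) and Mcpt4 (1.80 ± 0.40, adjusted p = 0.00197) rose into the suckling stage. Kit, which interstitial cells of the gut muscle also express, fell by 0.91 on the log2 scale into the weaned stage (adjusted p = 0.00585), but after median-ratio scaling the difference was -0.38 (adjusted p = 0.159). Fcer1a, a defining marker, had an FPKM of at most 0.418 and was listed at 0 at 8 timepoints. The part of mast cells in the levels of Hdc, Slc18a2 and Tph1 was not tested.

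Neurons express Slc18a2, Chga and Chgb as well, and platelets store amines. Of 12 tested neuronal genes, 8 fell into the suckling stage and 11 into the weaned stage (medians -0.74 and -1.40), and 6 and 11 after median-ratio scaling. In limma 0 of them rose in either comparison, also at an unadjusted p under 0.05. Their summed FPKM was 181 to 341 in the fetal stage, 122 to 217 in the suckling stage and 37.4 to 79.8 in the weaned stage, and none of the 13 listed genes was at 0 in any library. Stmn2 and Tubb3 fell by 2.04 and 1.68 on the log2 scale into the weaned stage (adjusted p = 0.000218 and 0.000739), as did Uchl1 by 1.67 and Prph by 1.64 (adjusted p = 0.000351 and 0.000796). Chga and Chgb were highest at W8, where the neuronal sum was lowest. The part of neurons in their fetal level was not tested. Of 4 tested megakaryocyte and platelet genes, 1 rose into the suckling stage (median 0.41). Into the weaned stage 3 of the 4 fell (median -1.13), against 46.8% of all tested genes. After median-ratio scaling the counts were 1 and 1 for these 4 genes. Among them Gp1bb rose by 1.18 ± 0.30 and then fell by 1.45 (adjusted p = 0.00455 and 0.00632), while the first difference was 0.95 without E15.5, D1 and D3 (adjusted p = 0.0608). Pf4 fell by 1.49 into the weaned stage (adjusted p = 0.0106), or by 0.96 after median-ratio scaling (adjusted p = 0.0965). The summed FPKM of this list was 25.2 to 61.3, 31.9 to 81.3 and 8.36 to 35.6 in the 3 stages.

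Gcg encodes preproglucagon, which gives glucagon in the pancreas and glucagon-like peptides in intestinal L cells. Its fetal FPKM had a lowest value of 1.35, a median of 2.29 and a highest value of 5.08 (E18.5). From D1 to W2 it was 6.77, 7.18, 12.1, 11.47 and 21.9. It was 23.3 at W3 but 4.62 at W6 and 4.86 at W8. The suckling values lay above all fetal ones, while the weaned values lay on both sides of the suckling range. Gcg rose by 1.78 ± 0.38 into the suckling stage (limma adjusted p = 0.00145; exact two-sided permutation p = 0.00126). The difference between the weaned and suckling stages was -0.36 ± 0.47 (adjusted p = 0.532), 0.15 after median-ratio scaling, -0.74 without E15.5, D1 and D3, and -1.05 without W3 (adjusted p = 0.0431). From W3 to W6 it was 5.04 times lower as deposited, a step of 4-fold or more that 1.53% of genes took downwards. The median-ratio factors that divide the FPKM were 0.756 at W3 and 0.572 at W6. Under that scaling the fall is short of 4-fold. The profiles most like that of Gcg were those of Stard5 (r = 0.942), Pbxip1 (r = 0.931) and Pgam2 (r = 0.921).

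Markers of the pancreas and the intestine were set beside Gcg. Ins1 and Ins2, the insulin genes, were at or below 0.355 FPKM and were both listed at 0 at W2, W3, W6 and W8. Of 3 tested genes in an islet list of 10, 2 rose into the suckling stage, and 1 rose and 1 fell into the weaned stage (medians 0.52 and -0.29). They were Ptf1a (0.74 ± 0.22, then 0.91 ± 0.28), which is not specific to islets, Iapp (0.52 ± 0.15 in the first) and Nkx6-1 (-1.38 ± 0.35 in the second). The other listed genes stayed below the FPKM of 1 needed for testing at every timepoint. Without E15.5, D1 and D3 only the first difference of Ptf1a passed among the 4 given. The others were then 0.50 for Ptf1a (adjusted p = 0.0660), 0.49 for Iapp (adjusted p = 0.0540) and -1.06 for Nkx6-1 (adjusted p = 0.0574). Iapp reached the FPKM of 1 needed for testing only at D3, so its rise is not independent of that limit. The summed FPKM of the islet list was 5.42 to 9.85, 4.60 to 8.47 and 3.29 to 5.14 in the 3 stages. Nkx6-1 made up most of each fetal sum, with an FPKM of 7.14 of 8.07 at E12.5. At W8 it was 0.0276, and Ptf1a was 3.35 of 4.44. The sums therefore do not follow the other genes of the list. Of 9 tested acinar genes, 3 rose into the suckling stage (median 0.88), namely Cel (1.89 ± 0.38), Cela2a (1.42 ± 0.56) and Cela3b (1.15 ± 0.45), of which Cel alone was called without E15.5, D1 and D3 (2.21, with 0.44 for both others). In limma 0 of the acinar genes changed into the weaned stage (median -0.69), and 1 was higher at an unadjusted p under 0.05, while 2 were called higher after median-ratio scaling and also without E15.5, D1 and D3.

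Of 9 tested genes of the intestinal epithelium, 7 rose and 1 fell into the suckling stage, and 2 rose and 1 fell into the weaned stage (medians 1.48 and 0.04), while 3 rose in the second after median-ratio scaling. Fabp1, a fatty acid binding protein gene, rose by 3.95 ± 0.75 into the suckling stage (limma adjusted p = 0.000794), and Apoa4 and Apoa1, apolipoprotein genes, by 3.27 ± 0.46 and 2.58 ± 0.47. Fabp2 rose into both stages (2.14 ± 0.31 and 1.69 ± 0.38). The summed FPKM of the intestinal list was 1391 at W3, 2419.6 at W6 and 2235 at W8, of which Apoa1 made up 90.5% to 95.1%. Without Apoa1 the sums were 132, 149.8 and 109.8. From W3 to W6 Gcg was 5.04 times lower as deposited. Over this step 7 of the 12 intestinal genes were lower, 3 (Apoa1, Apoa4 and Fabp2) were higher and 2 were at 0 in both. The part of intestinal RNA in the level of Gcg was not tested. Of 9 liver genes, 3 rose into the suckling stage and 1 fell into the weaned stage (medians 1.40 and -0.87). These were Ahsg (2.71 ± 1.03), Ttr (1.73 ± 0.42) and Serpina1a (1.33 ± 0.51), and Afp, which fell by 2.97 (adjusted p = 0.0291), or by 2.70 after median-ratio scaling (adjusted p = 0.0593). Without E15.5, D1 and D3 only Ttr among these 4 passed (1.498, adjusted p = 0.0450), while Ahsg differed by 0.80, Serpina1a by 0.59 and Afp by -1.43.

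Other peptide genes of the gut made a list of 20. Of the 14 tested, 8 rose and 1 fell into the suckling stage (median log2 fold change 0.96, against -0.22 for all tested genes), and 1 rose and 3 fell into the weaned stage (median -0.29, against -0.42). After median-ratio scaling the counts were 9 and 1, then 1 and 0. Pyy, which encodes peptide YY, had a highest FPKM of 58.8 at D3. It rose by 3.09 ± 0.45 into the suckling stage (limma adjusted p = 0.000182) and fell by 1.64 into the weaned stage (adjusted p = 0.0242), a fall that was 1.11 (adjusted p = 0.130) after median-ratio scaling and 1.65 (adjusted p = 0.0657) without E15.5, D1 and D3. Ppy, for pancreatic polypeptide, rose by 1.72 ± 0.20 (adjusted p = 8.25e-05) and fell by 0.83 (adjusted p = 0.0147), or by 0.50 after median-ratio scaling (adjusted p = 0.145). Grp, the gastrin-releasing peptide gene (2.34 ± 0.50, adjusted p = 0.00160), and Nmu, the neuromedin U gene (2.17 ± 0.45, adjusted p = 0.00131), rose into the suckling stage. Nucb2, with the highest mean FPKM of the list, rose by 1.03 ± 0.29 (adjusted p = 0.00768), and its difference was 1.01 without E15.5, D1 and D3 (adjusted p = 0.0564). The ratio of Gcg to Pyy FPKM was 3.05 at E12.5, 0.122 at D3 and 2.06 at W3.

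Genes that process prohormones and build granules, a list of 17 that includes Chga and Chgb, mostly rose into the suckling stage, with 13 higher and 1 lower (median log2 fold change 0.72, and 16 higher after median-ratio scaling). Into the weaned stage 3 rose, namely Chga, Chgb and Pcsk1, and 6 fell (median -0.26), while 46.8% of all tested genes fell (median -0.42). After median-ratio scaling 5 rose and 1 fell (median 0.27), so the direction of the list depended on the scaling. Ptprn2, a granule membrane protein gene, rose by 2.06 ± 0.48 into the suckling stage (limma adjusted p = 0.00250), as did Scg2, secretogranin II, by 1.96 ± 0.30 (adjusted p = 0.000229). Cpe, the carboxypeptidase that trims prohormones and the gene with the highest mean of the list, rose by 0.69 ± 0.12 (adjusted p = 0.000594) and then fell by 0.92 (adjusted p = 0.000605), or by 0.35 after median-ratio scaling (adjusted p = 0.105). Pcsk1, a prohormone convertase gene named after its values were seen, had an FPKM of 0.0844 at E12.5 and 4.69 at W8. The FPKM ratio of Pcsk1 to Pcsk2, the other convertase, was between 0.421 and 1.83.

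Of 12 transcription factor genes of the endocrine lineage, 7 were tested (medians 0.16 and -0.09). Insm1 fell by 0.78 on the log2 scale into the suckling stage (limma adjusted p = 0.0193), by 0.55 after median-ratio scaling (adjusted p = 0.0640) and by 0.62 without E15.5, D1 and D3 (adjusted p = 0.161). In limma 0 of the 7 rose in either comparison, with 3 and 0 higher at an unadjusted p under 0.05 and 3 and 1 after median-ratio scaling. Neurog3, which starts endocrine differentiation, fell by 0.67 into the weaned stage (adjusted p = 0.00866), and its FPKM was at most 1.17. It reached the FPKM of 1 needed for testing only at D3 and W2, in the suckling stage. This fall is therefore not independent of that limit. Foxa2, with the highest mean of the list, differed by 0.50 ± 0.21 and 0.35 ± 0.26 (adjusted p = 0.0542 and 0.268), and by 0.77 and 0.91 after median-ratio scaling, where both passed (adjusted p = 0.01002 and 0.0179). Of 7 tested genes of amine synthesis, transport and breakdown, 1 rose and 2 fell into the suckling stage, and 4 fell into the weaned stage (medians -0.23 and -0.35). The medians lay near those of all tested genes (-0.22 and -0.42), of which 41.9% and 46.8% fell. After median-ratio scaling the counts were 2 and 0, then 2 falls. Ddc, the decarboxylase of serotonin and dopamine synthesis, fell by 1.31 and Maoa, a monoamine oxidase gene, by 1.27 into the weaned stage (adjusted p = 0.000207 and 0.000275). Maob fell by 0.46 (adjusted p = 0.0228), but its difference was 0.06 after median-ratio scaling. Hnmt, which inactivates histamine, rose by 0.72 ± 0.17 into the suckling stage (adjusted p = 0.00308).

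Of 20 receptor genes for these hormones and their partners, 10 were tested. Into the suckling stage 6 rose, and into the weaned stage 3 rose and 4 fell (medians 0.71 and 0.16), where 46.8% of all tested genes fell. After median-ratio scaling 5 rose and 2 fell into the weaned stage. Sstr2, a somatostatin receptor gene, rose by 1.06 ± 0.24 and 1.75 ± 0.29 (limma adjusted p = 0.00194 and 0.000591), and Glp1r, the receptor of glucagon-like peptide 1, by 0.56 ± 0.21 and 1.47 ± 0.27 (adjusted p = 0.0352 and 0.000863). Cckar, the cholecystokinin receptor gene with the highest mean of the list, rose by 1.76 ± 0.36 into the suckling stage (adjusted p = 0.00111). Gcgr, the glucagon receptor gene, rose by 1.24 ± 0.27 and then fell by 1.75 (adjusted p = 0.00157 and 0.00110). The receptors of histamine on parietal cells, Hrh2, and of gastrin, Cckbr, named after their values were seen, had an FPKM of 0 and 0.448 at E12.5 and of 8.62 and 4.46 at W8. Hrh2 passed the test in both comparisons and Cckbr in the first. Ghsr, the ghrelin receptor gene, was listed at 0 at 14 timepoints and had an FPKM of 0.0262 at E17.5.

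Between W6 and W8, both in males, the 10 genes divided. Mboat4 (1.88), Hdc (1.67), Slc18a2 (2.31), Chga (1.82) and Chgb (1.87) had a W8 FPKM at least 1.5 times that of W6, 5 of the 10 against 18.3% of the genes with an FPKM of at least 1 in either library. For the other members the ratio was 1.15 (Ghrl), 0.745 (Gast), 1.17 (Sst), 0.783 (Tph1) and 1.05 (Gcg). The bounds of W6 and W8 lay apart for these 5 and also for Ghrl, Gast and Sst, and overlapped for Tph1 and Gcg. Since each age is 1 library, this difference has no replicate check. It also depends on the scaling. The median-ratio factors that divide the FPKM were 0.572 at W6 and 0.665 at W8. All W8 to W6 ratios are lower under that scaling, and that of Hdc is below 1.5. Among the stomach genes, the W8 to W6 ratio was 1.49 for Atp4a, a proton pump gene, 3.38 for Muc6, the mucin gene of the gland mucous cells, and 0.581 for Tff1, a gene of surface mucous cells. Their part in the ratios was not tested.

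Of 14 tested stomach epithelium genes, 10 rose into the suckling stage (median log2 fold change 2.44), and 4 rose and 1 fell into the weaned stage (median 1.12). Gkn2 and Gkn1, gastrokine genes of the surface epithelium, rose by 5.72 ± 0.61 and 5.63 ± 0.60 into the suckling stage (limma adjusted p = 5.13e-05 and 5.90e-05), and Tff1 by 4.87 ± 0.79 (adjusted p = 0.000329). Muc5ac, the mucin gene of surface cells, rose by 6.00 ± 0.78 into the weaned stage (adjusted p = 0.000163). Of 8 tested parietal and chief cell genes, 6 rose into the suckling stage, and 3 rose and 1 fell into the weaned stage (medians 3.85 and 2.05). Gif rose by 4.93 ± 0.77 into the suckling stage (adjusted p = 0.000254). Chia1 and Pgc rose by 8.19 ± 0.69 and 5.66 ± 0.61 into the weaned stage (adjusted p = 1.79e-05 and 8.02e-05), and Pga5 fell by 5.84 (adjusted p = 0.00835). The ratio of Hdc to Atp4a FPKM was 0.196 at E14.5, 0.00368 at E18.5 and between 0.00574 and 0.00830 in the weaned stage.

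RefSeq promoter sequences (GRCm38.p6) were found for 9 of the 10 genes, and the 150 bases before each start site were searched for the cyclic AMP response element TGACGTCA, which reads the same on both strands, and for the TATA letters TATAA on either strand. The response element stood in the windows of Sst and Chgb, 2 of the 9 genes, and in 1.58% of 27025 genes. It began 48 bases before the start site in Sst and 72 bases before it in Chgb. TATAA stood in the windows of Gast, Gcg and Tph1, 3 of the 9 genes, and in 16.3% of all. Neither set of letters was in a window of Ghrl. The windows of these 4 genes are shown, 5′ to 3′ on the gene's strand, because they pair the genes that moved together (Sst and Ghrl), the genes that share the element (Sst and Chgb) and Gast, whose RNA took the 15.9-fold step from D1 to D3. Capitals mark the letters searched for, which describe the sequence and do not show that a factor binds. The windows are chr16:23890845-23890994 for Sst and chr6:113719912-113720061 for Ghrl (both on the minus strand), and chr2:132781492-132781641 for Chgb and chr11:100334257-100334406 for Gast (both on the plus strand). The deposited entries of Ghrl and Chgb start upstream of these RefSeq start sites.
Sst: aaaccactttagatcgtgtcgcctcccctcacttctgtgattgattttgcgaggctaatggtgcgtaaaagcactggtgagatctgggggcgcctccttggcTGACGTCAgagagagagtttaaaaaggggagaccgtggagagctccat
Ghrl: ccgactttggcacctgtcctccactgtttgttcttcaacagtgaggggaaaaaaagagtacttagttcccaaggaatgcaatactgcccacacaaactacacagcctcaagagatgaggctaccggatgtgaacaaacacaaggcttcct
Chgb: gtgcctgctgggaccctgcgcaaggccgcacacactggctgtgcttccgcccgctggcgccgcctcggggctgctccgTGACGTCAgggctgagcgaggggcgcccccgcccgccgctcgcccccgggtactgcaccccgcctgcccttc
Gast: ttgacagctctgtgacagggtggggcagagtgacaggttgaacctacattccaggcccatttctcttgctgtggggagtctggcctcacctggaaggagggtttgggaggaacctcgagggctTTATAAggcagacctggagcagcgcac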

How the data were processed

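FPKM values with confidence bounds were deposited by the authors for each gene entry, in 1 table per library. The submitters' notes name GRCm38.p2, Bowtie 0.12.2 and FastQC, whereas the methods of the paper name HISAT2 and StringTie, and the tables have the layout of Cufflinks. Read depth is not stated, and the bounds cover counting error only, not differences between animals.

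Entries of a symbol were summed. Symbols whose highest FPKM was 1 or more were tested on log2(FPKM + 1), a scale that understates changes of low genes, with limma 3.58.1 (empirical Bayes with a mean-variance trend, R 4.3.3) over all 15 samples. Benjamini-Hochberg adjustment covered all tested genes, and the threshold was 0.05. Single genes were also compared by exact two-sided permutation of timepoints, which treats the ages as exchangeable although they are ordered. The test was checked on simulated data. Tables, sequence windows and figures were made with Python 3.11.15.

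The members and lists were chosen with earlier results of these data known. The genes named are the 10 members, the 3 genes with the most similar profile for each member (highest FPKM at least 5), and from each of the 14 lists up to 4 called genes with the largest change and the gene with the highest mean. Others are marked as named after their values were seen, or are markers named beside the members they move with. Alternatives were median-ratio scaling, a fixed FPKM sum, a pseudocount of 0.1, other FPKM limits, no trend, the paper's RNA phases, a threshold of 0.01, the first entry of a symbol only, and leaving out each timepoint. Leaving out E15.5, D1 and D3 together, and list sums without Kit or Apoa1, were added after marker levels had been seen. Isoforms and the proteome were not analysed here.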

Additional observations from a re-analysis of the deposited data

Results flagged for a closer look

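Tph1 at E18.5, with an FPKM of 0.457, lay far above the other 6 fetal timepoints. On log2(FPKM + 1), its distance to the nearest of them was 0.608 of the range of the stage. In all, 20 groups (10 genes in the fetal and the suckling stage) were examined in this way, and chance alone marks about 1 group in 20. The lower confidence bound of this value was 0.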

How the results depend on the processing

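Of the results for single genes under the alternatives other than the threshold of 0.01, 438 kept their direction and their side of the threshold. A further 25 passed it where the reported value did not, 1 no longer passed, and 12 changed sign. The number of members higher in the weaned than in the suckling stage was 8 instead of 5 after median-ratio scaling. It lay between 5 and 8 when 1 timepoint was left out, with 8 without W2. At a threshold of 0.01 it was 4, where Gast lost its call. The number higher in the suckling stage was then 6, where Hdc lost its call. The number lower in the weaned stage lay between 0 and 1, with 1 (Gcg) without W3. The number higher in the suckling stage stayed between 6 and 9 in the alternatives run, and the number lower there was 0. The change of sign concerned Mboat4 between the weaned and suckling stages with a fixed FPKM sum (-0.013), Slc18a2 between the suckling and fetal stages after median-ratio scaling (0.21), without E15.5, D1 and D3 (0.12) and in 7 of the runs without 1 timepoint (range over all such runs from -0.126 to 0.0716), and Gcg between the weaned and suckling stages after median-ratio scaling (0.15) and without W6 (0.0040, where runs without 1 timepoint ranged from -1.05 to 0.0040). None of these values passed the threshold with its changed sign. The call that was lost was that of Gast between the weaned and suckling stages without W6 (adjusted p = 0.0581 in limma). Except where the construction of an alternative shows it, the cause was not tested. Over all genes, the number called higher in the weaned stage was 831 as deposited, 3468 after median-ratio scaling, 348 with a fixed FPKM sum and 429 without E15.5, D1 and D3, and the number called lower was 7906, against 2698, 10827 and 4906, and 4699 without W6. For the suckling stage the numbers higher and lower were 2863 and 7078, against 4478 and 4095 after median-ratio scaling. No paired analysis was possible because each timepoint is a single library and the labels give no replicate numbers shared between stages. Low FPKM limits what can be said of Tph1 and Mboat4, whose bounds at most fetal and suckling timepoints were wide.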
